A study of Mus musculus with 24 samples.

Results

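The genes described here are 9 of a list of 10 that mouse cells use to answer stress and DNA damage: 6 targets of the transcription factor p53 (Ccng1, Cdkn1a, Mdm2, Trp53inp1, Phlda3 and Zmat3) and the 3 genes of the Gadd45 family (Gadd45a, Gadd45b and Gadd45g). On the platform they are annotated as CCNG1, CDKN1A, MDM2, TRP53INP1, PHLDA3, ZMAT3, GADD45A, GADD45B and GADD45G. All probes with a platform symbol in the list were taken, which gave 10 of 26423 probes, with 1 probe for each gene and 2 for Gadd45b. Bax, the remaining gene of the list, matched no probe symbol and was not analysed here. Total RNA of the tibialis anterior, a muscle of the lower leg, had been measured on 24 1-colour arrays in 8 mice aged 6 weeks on a mixed C57BL6/J;129S1/SvImJ background, with 3 arrays for each animal. The 4 control mice were Myf6 cre/+; Hira flox/+ and the 4 mice labelled Hira CKO (conditional knockout) were Myf6 cre/+; Hira flox/-. All 8 animals therefore carried the Myf6 cre driver, which acts in muscle fibres, and a floxed allele of Hira, the gene of a chaperone that deposits histone H3.3. Muscle cells without active cre also had different Hira genotypes in the 2 groups, since the labels give these genotypes for the whole animals. The question asked is how loss of Hira in muscle fibres changes expression, as the series title states.

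The p53 protein is kept scarce by the ubiquitin ligase Mdm2 and accumulates after DNA damage and other stress. It then activates genes that halt the cell cycle, start apoptosis, alter metabolism or, as with Mdm2, feed back on p53 itself. The Gadd45 proteins are small stress-induced proteins that bind the kinase Map3k4, which activates the p38 and JNK kinases, and that have been linked to DNA repair and DNA demethylation. In skeletal muscle Cdkn1a is known for the exit of myoblasts from the cell cycle, and Gadd45a for its induction after denervation.

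The sequence before the start of 3 members is shown because it holds a letter match to the binding element of p53, or because the member rose at both of its probes. Each line is the 250 bases before the annotated start from RefSeq, build GRCm38.p6, written 5′ to 3′ on the strand of the gene. Capitals mark every match to the motifs searched on both strands: the CCAAT box (letters CCAAT), the TATA box (letters TATAAA), the GC box (letters GGGCGG), the E-box (letters CACGTG) and the p53 decamer, with the p53 tandem decamer (20 letters, at most 1 mismatch) as a separate motif that can overlap the decamer.
Cdkn1a, chr17:29090729-29090978, plus strand: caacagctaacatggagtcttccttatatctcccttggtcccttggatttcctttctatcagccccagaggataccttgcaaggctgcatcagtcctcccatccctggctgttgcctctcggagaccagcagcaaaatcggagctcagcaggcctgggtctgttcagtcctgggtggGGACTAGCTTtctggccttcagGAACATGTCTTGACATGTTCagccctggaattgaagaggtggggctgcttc
Ccng1, chr11:40755287-40755536, minus strand: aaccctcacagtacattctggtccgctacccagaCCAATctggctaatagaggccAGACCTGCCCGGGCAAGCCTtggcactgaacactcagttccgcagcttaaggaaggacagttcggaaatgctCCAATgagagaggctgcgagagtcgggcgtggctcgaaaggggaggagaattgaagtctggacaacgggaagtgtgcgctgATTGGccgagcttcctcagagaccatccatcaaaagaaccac
Gadd45b, chr10:80929841-80930090, plus strand: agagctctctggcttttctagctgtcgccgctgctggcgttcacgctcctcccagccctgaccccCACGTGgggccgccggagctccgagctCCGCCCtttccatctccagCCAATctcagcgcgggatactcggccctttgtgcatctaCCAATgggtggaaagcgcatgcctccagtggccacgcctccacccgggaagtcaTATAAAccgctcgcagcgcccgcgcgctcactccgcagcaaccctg

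RefSeq windows were at hand for 7 of the 9 measured genes, 8 windows in all, since Cdkn1a has a second start. The p53 tandem decamer was found in 25 of 32851 windows of this length (0.0761%). Both Cdkn1a and Ccng1 held 1 such match, GAACATGTCTTGACATGTTC beginning 51 bases before the more upstream start of Cdkn1a and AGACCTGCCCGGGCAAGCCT beginning 195 bases before the start of Ccng1, each with 1 mismatch. The Gadd45b window held a TATA box (12.4% of all windows), an E-box (6.02%), a GC box (32.7%) and 2 CCAAT boxes (33.8%), and no match to the p53 decamer (7.13%). Single p53 decamers were also matched in the Mdm2 and Gadd45a windows, while the window of the second Cdkn1a start held none. A match describes letters only.

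Ccng1 and Gadd45b were higher in Hira CKO, and no member passed the test as lower. The test was limma on log2(intensity + 16), with 1 value per animal and p-values adjusted over all 26423 probes by the Benjamini-Hochberg method, and a probe counted as called at an adjusted p under 0.05. Of the 10 member probes 3 were called, all higher, in 2 of the 9 genes. In this comparison 20.6% of all probes were called, 10.5% higher and 10% lower, so that calls were frequent throughout the array. Counted by gene at the brightest probe, 21.2% of all named genes were called, and 2 of 9 member genes is near that share. The median change of the member probes was 0.08 log2, against 0.01 log2 over all probes, with 5 member probes above 0 and 5 below. The groups did not overlap for the same 3 probes, against 24.8% of all probes, of which 12.8% were higher and 12% lower in Hira CKO.

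**Figure D1:**
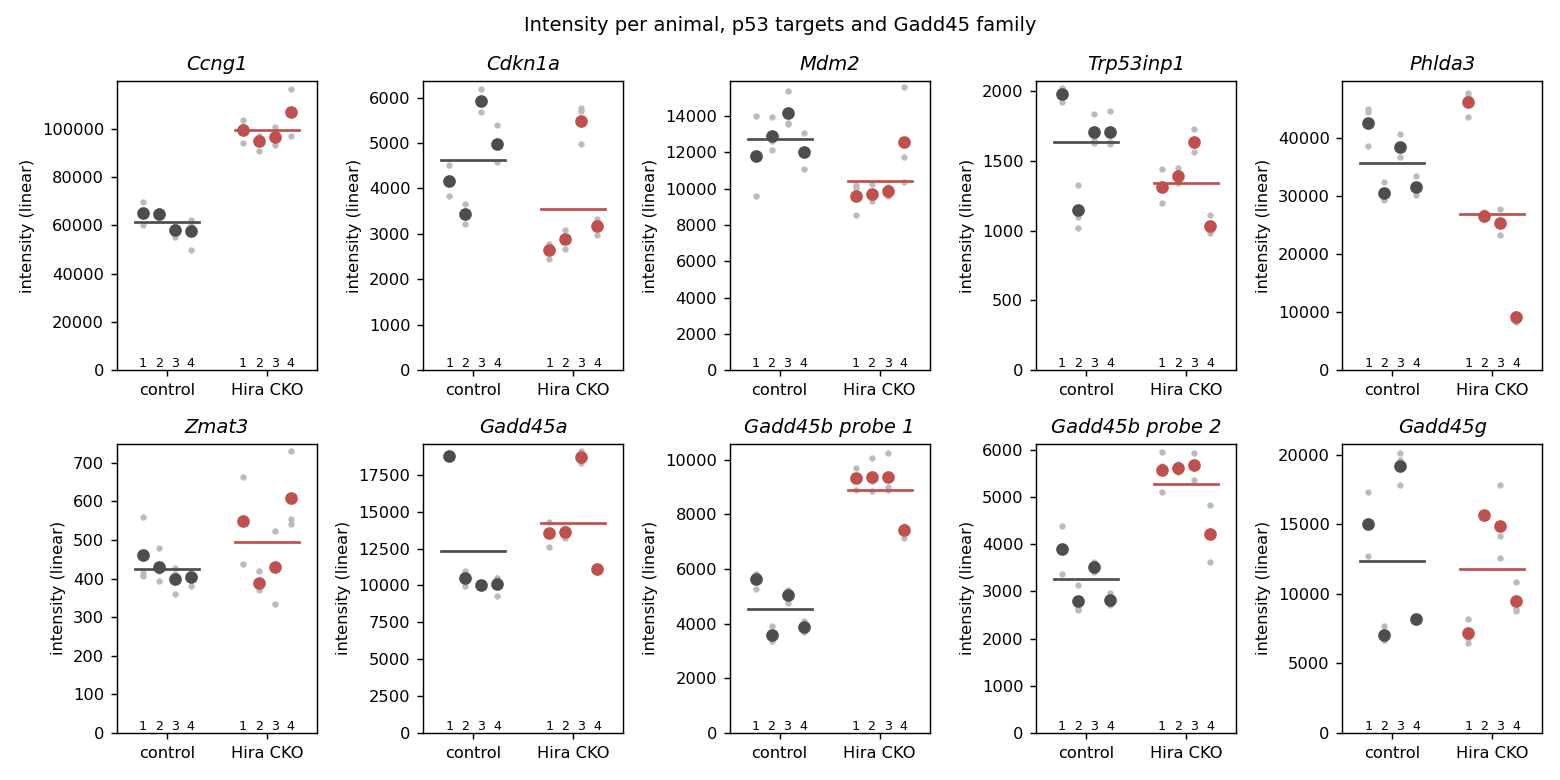
Intensity (linear scale, from 0) of the 10 probes in each animal. Large points are means of 3 arrays, numbered by animal, small grey points are single arrays, and lines are group means. Ccng1 and both Gadd45b probes separate the groups, and the other 7 probes overlap.

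Several measures of the tissue also differed between the groups. The Hira probe itself was not lower in Hira CKO, with intensities of 495 ± 48.9 in controls and 558 ± 38.9 in Hira CKO (SD, n = 4) and a limma adjusted p of 0.193, so directions rest on the labels. The position of that probe relative to the floxed segment is unknown here. The summed intensity of 12 measured muscle fibre markers ran from 2110644 to 2390684 in controls and from 1985267 to 2103302 in Hira CKO, with 4 markers (Acta1, Ckm, Ttn and Neb) called lower. The sum over 10 endothelial markers ran from 63860 to 79880 in controls and from 51004 to 56275 in Hira CKO, with 5 called lower and 1 higher. That sum was weighted most by its brightest gene, Egfl7, with means of 30882 in controls and 19234 in Hira CKO. Eng, Tek and Flt1 were higher in mean in Hira CKO and the other endothelial markers lower. The sum over 11 immune cell markers overlapped, at 5279 to 7464 and 5381 to 6861, with 4 called higher and 1 lower. Of 9 measured satellite cell markers 1 was called higher, of 9 fibroblast markers 1 lower and of 9 smooth muscle and pericyte markers 2 lower, while 0 of 8 adipocyte, 0 of 5 Schwann cell and nerve and 0 of 3 red blood cell markers were called. In whole muscle, fewer cells of a type and less RNA per cell cannot be told apart. The part of these markers in the results that follow was not tested.

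Ccng1 encodes cyclin G1, a p53 target that recruits a phosphatase to Mdm2. Its intensity in control animals 1 to 4 was 65252, 64621, 58017 and 57612. In Hira CKO animals 1 to 4 it was 99605, 94806, 96600 and 107166, so every Hira CKO animal lay above every control. The change was 0.70 log2 (SE 0.077, 95% interval 0.53 to 0.87), or 1.62-fold, with a limma adjusted p of 0.000272. A change at least this large was seen in 428 of the 2783 probes called higher. Single arrays did not overlap either, the highest control array being at 69700 and the lowest Hira CKO array at 90729. The spread of Ccng1 between animals was small, with a pooled SD of 0.088 log2 that only 16.3% of all probes fell below.

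Gadd45b is the Gadd45 gene known as a target of NF-kB and TGF-beta signalling in other cells. At its brighter probe the intensity was 5635, 3575, 5036 and 3865 in control animals 1 to 4. In Hira CKO animals 1 to 4 it was 9323, 9373, 9378 and 7411. These groups did not overlap, and animal 4 was the lowest of the Hira CKO animals while the other 3 were nearly level. The change was 0.99 log2 (SE 0.149, 95% interval 0.65 to 1.32), or 1.98-fold, with a limma adjusted p of 0.00161. Of the 2783 probes called higher 150 changed at least as much.

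The second Gadd45b probe gave the same picture at a smaller size. Its intensity was 3889, 2793, 3508 and 2817 in control animals 1 to 4. It was 5576, 5614, 5682 and 4210 in Hira CKO animals 1 to 4. Again the groups did not overlap, animal 4 was the lowest of its group, and among controls animals 1 and 3 were the higher ones at both probes. The change was 0.70 log2 (SE 0.137; 95% interval from 0.39 to 1.00; limma adjusted p 0.00641). The positions of the probes on the transcript are unknown here.

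**Figure D2:**
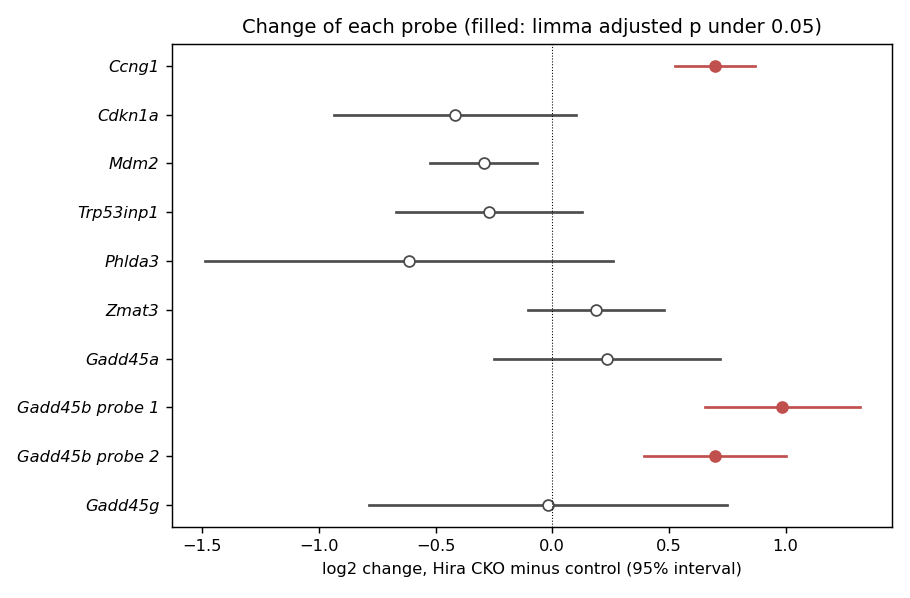
Log2 change of each probe, Hira CKO minus control, with 95% intervals from limma (n = 4 animals per group). Filled red points have an adjusted p under 0.05: Ccng1 at 0.70 and Gadd45b at 0.99 and 0.70.

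Cdkn1a encodes p21, the inhibitor of cyclin-dependent kinases through which p53 halts the cell cycle. Its intensity was 4169, 3441, 5925 and 4969 in control animals 1 to 4. It was 2638, 2877, 5482 and 3173 in Hira CKO animals 1 to 4. Of the Hira CKO animals 3 lay below every control, and animal 3 lay above 3 of the controls. The change of −0.42 log2 (SE 0.232, 95% interval −0.94 to 0.10) had a limma adjusted p of 0.230. Without Hira CKO animal 3 the change was −0.65 log2 with a limma adjusted p of 0.0314. No other fit without 1 animal passed for Cdkn1a (limma adjusted p 0.15 to 0.458). With animal number as a block the limma adjusted p was 0.0429.

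Mdm2 encodes the ubiquitin ligase that marks p53 for destruction. Its intensity was 11796, 12902, 14193 and 12042 in control animals 1 to 4. It was 9587, 9694, 9887 and 12564 in Hira CKO animals 1 to 4. Animal 4 lay within the control range and the other 3 Hira CKO animals lay below it. The change was −0.29 log2 (SE 0.103; 95% interval from −0.52 to −0.06; limma adjusted p 0.0708). Without Hira CKO animal 4 the change was −0.38 log2 and passed, with a limma adjusted p of 0.0161. No other fit without 1 animal passed for Mdm2 (limma adjusted p 0.0674 to 0.179). The 3 arrays of Hira CKO animal 4 read 10391, 11725 and 15577, so that its level rested in part on a single array.

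Trp53inp1 encodes a cofactor that promotes p53 activity and autophagy. Its intensity was 1981, 1149, 1707 and 1706 in control animals 1 to 4, and 1314, 1394, 1635 and 1031 in Hira CKO animals 1 to 4. The groups overlapped through the low value of control animal 2. The change was −0.27 log2 (SE 0.178; 95% interval from −0.67 to 0.13; limma adjusted p 0.309).

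Phlda3 encodes an inhibitor of Akt that p53 induces. Its intensity was 42615, 30443, 38344 and 31502 in control animals 1 to 4. It was 46168, 26471, 25390 and 9152 in Hira CKO animals 1 to 4. Hira CKO thus held both the highest and the lowest animal of the 8. The change was −0.62 log2 (SE 0.392; 95% interval from −1.49 to 0.26; limma adjusted p 0.294). Without Hira CKO animal 4 it was −0.17 log2, and without Hira CKO animal 1 it was −0.95 log2, neither of which passed. The 3 arrays of Hira CKO animal 4 ran from 8266 to 9626 and those of animal 1 from 43562 to 47785, so the arrays of an animal repeated its level.

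Zmat3 encodes an RNA-binding protein that p53 induces. The intensity of its probe was close to the array medians of 431.5 to 433.5. The intensity was 460, 431, 400 and 404 in control animals 1 to 4, and 550, 389, 430 and 608 in Hira CKO animals 1 to 4. Of the Hira CKO animals 2 lay above the control range, 1 within it and 1 below it. The change of 0.19 log2 (SE 0.131, 95% interval −0.11 to 0.48) had a limma adjusted p of 0.343.

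Gadd45a is the member that rises in muscle after denervation and fasting. Its intensity was 18780, 10500, 10002 and 10112 in control animals 1 to 4. It was 13539, 13618, 18681 and 11126 in Hira CKO animals 1 to 4. Control animal 1 was higher than every Hira CKO animal, while the other 3 controls were lower than every Hira CKO animal. The change was 0.24 log2 (SE 0.217; 95% interval from −0.25 to 0.72; limma adjusted p 0.477). Without control animal 1 it was 0.46 log2 with a limma adjusted p of 0.0682. Without Hira CKO animal 3 it was 0.10 log2 with a limma adjusted p of 0.788.

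Gadd45g had a wide spread in both groups. Its intensity was 14991, 7024, 19183 and 8163 in control animals 1 to 4, and 7160, 15685, 14857 and 9498 in Hira CKO animals 1 to 4. In each group 2 animals were high and 2 low. The change was −0.02 log2 (SE 0.345; 95% interval from −0.79 to 0.75; limma adjusted p 0.979), and it took either sign as single animals were left out.

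The members differed in how much they varied between animals of the same group. The pooled SD between animals was 0.71 log2 for Phlda3, 0.62 for Gadd45g, 0.41 for Cdkn1a, 0.38 for Gadd45a and 0.31 for Trp53inp1, against a median of 0.14 over all probes. Of all probes 99.5% varied less than Phlda3 and 99.2% less than Gadd45g. For these 5 probes the SD between arrays of an animal was only 0.06 to 0.16 log2. For Ccng1, Mdm2 and Zmat3, by contrast, single arrays of an animal varied about as much as animal means did. Their array SDs were 0.097, 0.17 and 0.21 log2 against animal SDs of 0.088, 0.15 and 0.21. The called Gadd45b probes also varied more than most, with animal SDs of 0.25 log2 at the brighter probe and 0.22 at the second. Of all probes 87.6% varied less than the brighter one and 83.4% less than the second.

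**Figure D3:**
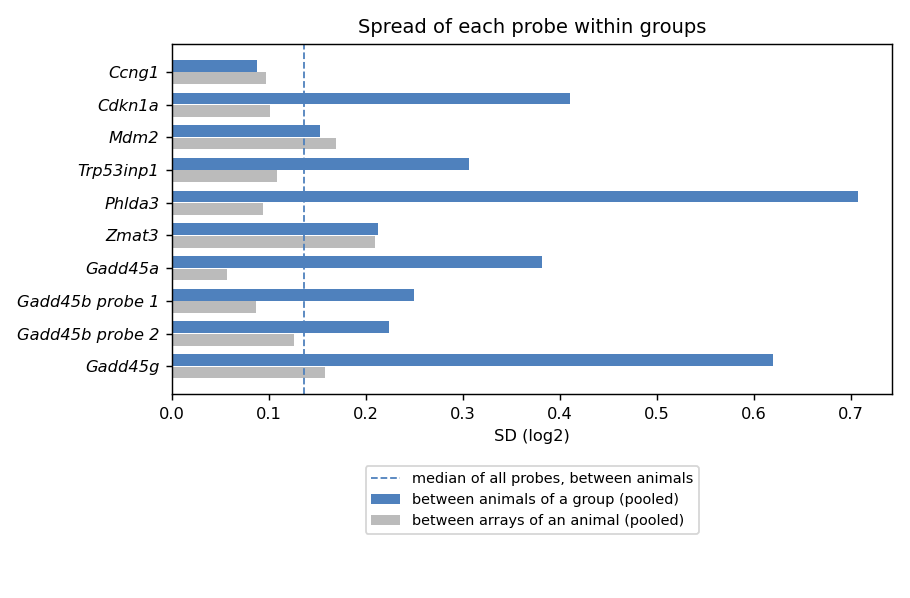
Pooled within-group SD (log2) of the 10 probes between animal means (blue) and between the 3 arrays of an animal (grey). Phlda3, Gadd45g, Cdkn1a, Gadd45a and Trp53inp1 lie well to the right of the dashed all-probe median of 0.14. Both Gadd45b probes, Zmat3 and Mdm2 lie to its right by less, and Ccng1 lies to its left.

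The changes of the called members and of their relatives can be set side by side as differences within each animal, given here without a test because the pairs were formed from which members had been called. The change of Ccng1 exceeded that of Mdm2 by 0.99 log2 (SE 0.109), that of Trp53inp1 by 0.97 (SE 0.254), that of Phlda3 by 1.32 (SE 0.527), that of Cdkn1a by 1.12 (SE 0.325) and that of Zmat3 by 0.51 (SE 0.111). The change of Gadd45b, averaged over its 2 probes, exceeded that of Gadd45g by 0.86 log2 (SE 0.344) and that of Gadd45a by 0.61 log2 (SE 0.190).

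The probes that followed the called members most closely across the 8 animals, once group means were removed, were found by Pearson correlation among 20376 other named probes. For Ccng1 these were Snx19 (r 0.99), Gatc (0.98) and Slc25a35 (0.98). For the brighter Gadd45b probe they were Unc5a (0.98), Rab3gap1 (0.98) and Trim34a (0.98), and for the second probe Eif4ebp2 (0.99), Unc5a (0.99) and Kcnd3 (0.99). Of these genes, Rab3gap1 alone was called between the groups (0.26 log2, limma adjusted p 0.0318). With 8 animals and so many probes searched, such values describe likeness within these arrays.

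Lists of pathway genes outside the members were examined at the brightest probe of each gene, where 21.2% of 17742 named genes were called, 11% higher and 10.3% lower, with a median change of 0.01 log2. Of 17 measured genes in the list of p53 relatives and regulators 2 were higher and 4 lower (35.3%), with a median of −0.14 log2. Trp53, the gene of p53 itself, had no named probe, so its expression could not be read. Over the fits without 1 animal the lower count ran from 2 to 5. Ep300, an acetyltransferase and coactivator of p53, rose by 0.66 log2 from 1208 ± 62.8 to 1925 ± 98.5 (SD, n = 4, limma adjusted p 0.000246). Trp73, a p53 relative, rose by 0.73 log2 from 213 ± 16.6 to 362 ± 49.7 (limma adjusted p 0.00148). With array 1 alone Trp73 was at 0.58 log2 and did not pass (limma adjusted p 0.179). Its SD between arrays was 0.36 log2, against 0.17 between animals. Atm, the kinase that signals DNA double-strand breaks to p53, fell by 0.61 log2 from 1427 ± 120 to 929 ± 60.9 (limma adjusted p 0.000977), while a dimmer Atm probe changed by −0.22 and did not pass. Trp63, the other p53 relative, fell by 1.54 log2 at its brightest probe (limma adjusted p 0.0155) but rose by 0.60 log2 at a second (limma adjusted p 0.00972). The falling and rising probes had nearly equal mean intensities of 781 and 772, so its count as lower rests on that small difference. The falling probe varied widely, with a pooled SD between animals of 0.66 log2. The dimmest Trp63 probe changed by 0.28 and did not pass. Mdm4, the partner of Mdm2, was at −0.05 log2 and did not pass, as a value given outside the naming rule.

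Of 36 other p53 targets 1 was higher and 3 lower (11.1%), with a median of 0.03 log2. Perp, a membrane protein gene controlled by p53 and p63, rose by 0.72 log2 from 416 ± 60.7 to 697 ± 109 (limma adjusted p 0.00465). Trp53i13 fell by 1.70 log2 from 316 ± 63.1 to 86.2 ± 13.5 (limma adjusted p 6.91e-05), and Trp53i11 fell by 0.58 log2 from 1018 ± 93.9 to 678 ± 91.2 (limma adjusted p 0.00493). Btg2, an antiproliferative gene, fell by 0.28 log2 at its brighter probe, while a dimmer one changed by −0.09 (limma adjusted p 0.514). The brighter probe no longer passed without control animal 3 (limma adjusted p 0.0587) or without Hira CKO animal 1 (0.0522). The remaining 32 did not pass, among them the apoptosis genes Bbc3 (−0.01 log2) and Pmaip1 (0.14) and the stress genes Sesn1 (0.10) and Sesn2 (0.11), named after their values were seen. Leaving out 1 animal gave 1 to 2 higher and 2 to 5 lower in this list.

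**Figure D4:**
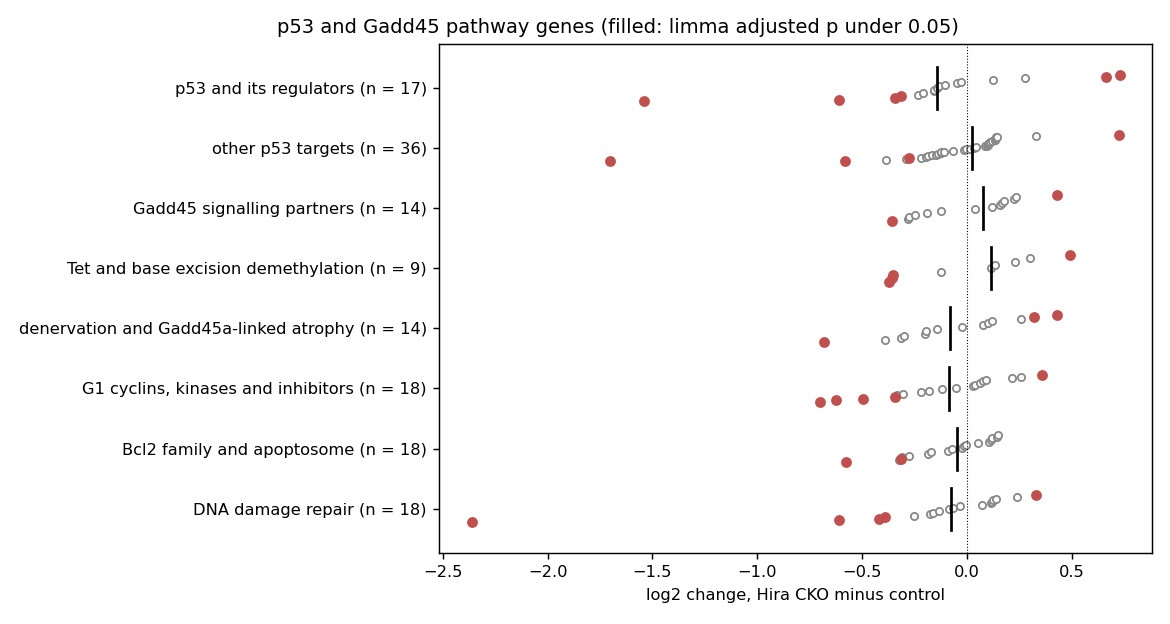
Log2 change (Hira CKO minus control) of each measured gene of 8 pathway lists at its brightest probe, with the list's median as a black line. Filled red points have a limma adjusted p under 0.05; among 36 other p53 targets there are 4.

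Among 14 measured partners of Gadd45 signalling 1 was higher and 1 lower, with a median of 0.08 log2. Map3k4, the kinase that Gadd45 proteins bind and activate, rose by 0.43 log2 from 3805 ± 310 to 5137 ± 408 (limma adjusted p 0.00638). The brightest probe of Map2k7, which activates JNK, fell by 0.36 log2 and no longer passed without control animal 3 (limma adjusted p 0.0581) or Hira CKO animal 2 (0.0569). Its other probes changed by 0.02, which did not pass, and by −0.55, which did. In the list of Tet enzymes and base excision repair, 1 of 9 was higher and 3 lower, with a median of 0.12 log2. The ligase gene Lig3 rose by 0.49 log2, its partner Xrcc1 fell by 0.36, Parp1 fell by 0.37 and the glycosylase gene Mbd4 fell by 0.35. With array 3 alone Parp1 was at −0.14 log2 and did not pass (limma adjusted p 0.478). Mbd4 failed to pass in 4 of the 8 fits without 1 animal (limma adjusted p up to 0.0736). In the list of denervation and Gadd45a-linked atrophy genes, which shares Map3k4, 2 of 14 were higher and 1 lower, with a median of −0.08 log2. Chrng, the fetal acetylcholine receptor subunit, fell by 0.68 log2 (limma adjusted p 0.0158), which rested largely on array 2 of each animal. With array 2 alone the change was −1.46 log2, and it did not pass with array 1 alone (−0.22, limma adjusted p 0.353), with array 3 alone (−0.37, 0.294) or with 24 arrays and the animal as a random block (0.13). The transcription factor gene Runx1 was higher at both of its probes, by 0.32 and 0.63 log2. At the brighter one, with the smaller change, it failed to pass in 7 of the 8 fits without 1 animal (limma adjusted p up to 0.113).

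Of 18 genes of G1 cyclins, kinases and inhibitors 1 was higher and 4 lower, including Cdkn2a, also counted among the p53 regulators, with a median of −0.08 log2. Ccng2, the relative of Ccng1, fell by 0.70 log2 from 4443 ± 634 to 2741 ± 483 (limma adjusted p 0.00852), so both cyclin G genes passed, in opposite directions. Ccne1, cyclin E1, fell by 0.63 log2, Rbl2, a relative of the retinoblastoma protein, fell by 0.50, and Cdkn2c, a kinase inhibitor, rose by 0.36 but did not pass without control animal 3 (limma adjusted p 0.0542). Of 18 genes of the Bcl2 family and the apoptosome, which share Bbc3, Pmaip1 and Apaf1 with the p53 targets, 0 were higher and 2 lower, with a median of −0.05 log2. These were Bcl2l1, which protects from apoptosis, at −0.57 log2 (limma adjusted p 0.0066), and Casp9, the caspase of the apoptosome, at −0.31, which did not pass with array 3 alone (−0.16, limma adjusted p 0.425). Of 18 DNA damage repair genes, among them Atm and Atr of the p53 regulators, 1 was higher and 4 (Atm included) lower, with a median of −0.08 log2. Rpa1, which coats single-stranded DNA, fell by 2.36 log2 from 14805 ± 1415 to 2972 ± 656 (limma adjusted p 1.61e-05). Fancd2 fell by 0.42 log2 at a low intensity, from 51.2 ± 5.88 to 34.3 ± 4.42, and Prkdc fell by 0.39 but failed to pass in 5 of the 8 fits without 1 animal (limma adjusted p up to 0.0761).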

How the data were processed

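The deposited table held a linear intensity per probe and array. How scanning, background and normalization were done is unstated in the labels. The authors had evidently normalized the deposited intensities: the maximum was 439069.7 on every array, and 81.1% of values were whole multiples of 1/24 within 0.001, as a quantile step over 24 arrays gives. With 50 values at or below 0, some background must have been taken off. There were no detection calls, and the number of animals, 4 per group, limits precision. Batches of arrays could not be examined, because neither slides nor scan dates are listed. Whether such batches coincide with the groups is unknown, so their effect could not be separated from that of the groups.

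Values below 0 were set to 0, log2(intensity + 16) was taken, each animal was given the mean of its 3 arrays, and limma 3.58.1 (lmFit, eBayes; R 4.3.3) compared the groups over all 26423 probes. Fold changes are on that scale and understate dim probes. The planned design allowed for linear or log values, and the linear form applied. Intensities are means ± SD of 4 animals. The platform annotation named 20377 probes, with symbols updated through the RefSeq gene table of GRCm38.p6, and 6046 are unnamed here. The fit was also tested on simulated data.

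The members and lists were chosen with earlier results of these data known. All member probes and Hira are named, with up to 4 called genes of largest change per pathway list at the brightest probe, and 3 correlated probes per called member probe. Animal numbers are shared between groups. Deviations of same-numbered animals 1 to 4 correlated at 0.296, 0.093, −0.064 and 0.067 across probes. Those of differently numbered animals correlated at −0.213 to 0.173, so that only animal 1 lay above this range. The numbers were not taken as pairs in the main fit. Alternatives were other scalings, pseudocounts of 1 and 50, a filter on the dimmest 30% of probes, other array summaries, an animal number block, other variance models, weights, thresholds and each animal left out. Figures used matplotlib 3.10.9.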

Additional observations from a re-analysis of the deposited data

Results flagged for a closer look

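In groups of 4 animals, an animal was singled out where its gap to the nearest other animal, divided by the range of the group, exceeded Dixon's critical value for 4 samples. This was computed for 35 probes in both groups, 70 groups in all, and 5 were singled out, where chance gives about 1 in 20. Gadd45a had control animal 1 at 18780 against 10002 to 10500 in the other controls (ratio 0.924). Hira CKO animal 4 was singled out at 3 member probes: at Mdm2 it was at 12564 against 9587 to 9887 (0.87), at the brighter Gadd45b probe at 7411 against 9323 to 9378 (0.981), and at the second Gadd45b probe at 4210 against 5576 to 5682 (0.934). The 2 Gadd45b probes measure the same RNA and are not separate observations. For Cdkn2c, Hira CKO animal 1 was at 2215 against 1794 to 1860 (0.847).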

How the results depend on the processing

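The 3 calls of higher member probes held in every alternative tried except array 1 of each animal alone, which gave 2, the second Gadd45b probe being at 0.55 log2 with a limma adjusted p of 0.0805. Over the 8 fits without 1 animal the count of higher member probes stayed at 3, with Ccng1 between 0.66 and 0.73 log2 and Gadd45b between 0.88 and 1.10 and between 0.63 and 0.80. The count of lower member probes was 0, but 1 with array 1 alone (Mdm2), with 24 arrays and the animal as a random block (Cdkn1a), with the replicate block (Cdkn1a), with array weights (Mdm2) and at a threshold of 0.1 (Mdm2), and 0 to 1 without 1 animal. The replicate block gave 4925 called probes. The count of all called probes was 5432, and 3191, 2848 and 3124 with array 1, 2 or 3 of each animal alone, 2409 at a threshold of 0.01 and 7762 at 0.1, 7254 with 24 arrays and the random block, 6778 with array weights, and 3680 to 5133 without 1 animal. The change of Gadd45g, −0.02 log2, was 0.0031 with array 1 and 0.0692 with array 2, and ran from −0.25 to 0.24 without 1 animal. Among the pathway genes, Map3k4, Lig3, Ccng2, Rbl2, Trp53i11 and Bcl2l1 each failed to pass in 1 of 14 alternatives that kept all animals (limma adjusted p up to 0.106). Ccne1 failed in 2 of 14 (limma adjusted p up to 0.0835) and Fancd2 in 2 of 13 (up to 0.104). No scaling moved the median of all probes by more than 0.01 log2. The deposited arrays were already level, with medians of 431.5 to 433.5 and a shared maximum, so rescaling could change little. The calls under these scalings are therefore no separate support. The table has no detection calls, and for Zmat3 the spread between arrays limits what could be detected. The cause of these shifts was not tested.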

Other observations

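Outside the members, 2 sex-linked genes were looked at because sex was not given in the labels, and both were chosen after earlier results were known. Xist was dim in all 8 animals, at 194 to 254 in controls and 169 to 210 in Hira CKO. The Y-linked gene Kdm5d was 750 ± 52.6 in controls and 452 ± 103 in Hira CKO (SD, n = 4). It differed by −0.75 log2 (limma adjusted p 0.00963), with 701 to 824 in controls and 308 to 540 in Hira CKO. Its relation to the members was not tested.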
